A study of Mus musculus with 3 samples.

Results

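The genes that make prostaglandin E2 and prostaglandin D2 and the genes of the E-type prostaglandin receptors were examined in mouse astrocytes derived from embryonic stem cells. The set holds 10 genes, namely the cyclooxygenases Ptgs1 and Ptgs2, the terminal synthases Ptges, Ptges2, Ptges3 and Ptgds, and the receptors Ptger1, Ptger2, Ptger3 and Ptger4. Members were chosen by gene symbol, from probe sets annotated to exactly 1 gene, and the value of a gene is that of its probe set with the highest mean. Under this rule 8 of the 10 were measured, out of 18194 genes with such a probe set. Ptgs1 has no probe set in the annotation used here. Ptges3 is named only by 2 probe sets that also carry the symbol of its pseudogene Ptges3-ps, so no value is given for either gene.

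All 3 samples form 1 group, labelled wild type, and were hybridised to Affymetrix Mouse Genome 430 2.0 arrays, which carry 1 colour. The stem cells spent 4 days as embryoid bodies and 5 to 7 days in ITSFn selection medium. The neural precursors so obtained were kept in FGF2 and a factor that the labels write as EGF2, and at 18 passages counted from the embryoid bodies the factors were withdrawn and 5% FBS (fetal bovine serum) was given for 5 days. The labels name neither the stem cell line nor separate cultures, so the p-values reflect no more than how these 3 samples varied, possibly for technical reasons alone, and the number of arrays limits the precision. The median probe-set intensity lay between 19.4 and 23.3 on the 3 arrays.

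Prostaglandins are lipid signals made on demand. Phospholipases free arachidonic acid from membranes, a cyclooxygenase turns it into the unstable intermediate prostaglandin H2, and terminal synthases make from this the active products. Prostaglandin E2 acts through receptors that couple to different G proteins, and in the brain this system takes part in fever, in inflammation and in signalling between astrocytes, neurons and blood vessels.

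With a single group, the question each gene can answer is whether its signal exceeded background. Background was set from 78 genes of olfactory, vomeronasal, trace-amine and taste receptors, whose median level was 1.78 log2 units. The limit was the 95th percentile of these genes on each array, at log2 signals of 3.99, 4.10 and 4.07 on replicates 1, 2 and 3. These limits correspond to deposited intensities of 15.9, 17.1 and 16.8. A gene is called above background where its log2 signal minus the limit exceeded 0 (limma, one-sided, Benjamini-Hochberg adjusted p below 0.05 over all 18116 genes tested). Levels are mean log2 signal ± SD (n = 3) and are not compared between genes, because probe sets differ in brightness.

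Of the 8 measured members, 3 were above background: Ptgds, the lipocalin-type synthase of prostaglandin D2, Ptger3, the EP3 receptor, and Ptges2, a membrane-associated synthase of prostaglandin E2. The inducible enzymes of prostaglandin E2 synthesis, Ptgs2 and Ptges, and the receptors Ptger1, Ptger2 and Ptger4 were not. Of all genes tested, 58.3% were above background. The median difference from the limit was -1.37 log2 units over the 8 members and 1.76 over all genes tested. The 3 called members lay above the limit on all 3 arrays, as did 59.8% of all genes tested, and the other 5 members lay below it on every array.

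**Figure D1:**
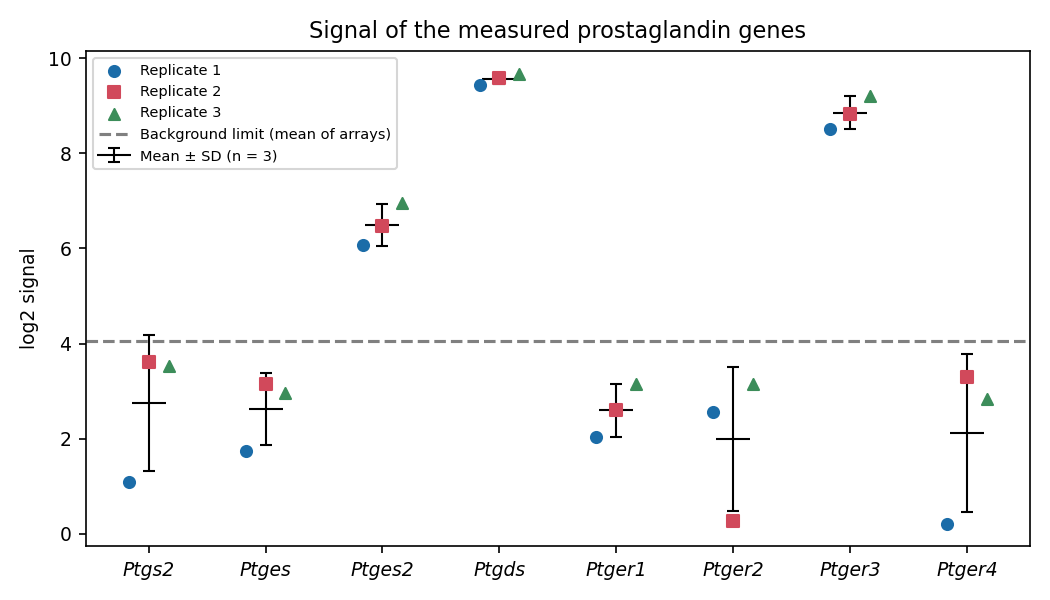
Log2 signal of the 8 measured members on each array (points), with the mean and SD over the 3 arrays (bars) and the mean background limit (dashed line). Ptges2, Ptgds and Ptger3 lie above the limit on all 3 arrays, and the other 5 genes lie below it on all 3.

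For the genes on which these results turn, the 250 bases before the transcript start are shown, from the RefSeq promoter table of GRCm38.p6, 5′ to 3′. They are Ptgds (chr2:25469750-25469999, minus strand) and Ptger3 (chr3:157566626-157566875, plus strand), which were above background, and Ptgs2 (chr1:150099781-150100030, plus strand), the inducible cyclooxygenase, which was not. Capitals mark matches, on either strand, to the C/EBP motif TTGCGCAA, the E-box CACGTG, the CRE core TGACG or the GC box GGGCGG, and these matches did not overlap each other here.
Ptgds: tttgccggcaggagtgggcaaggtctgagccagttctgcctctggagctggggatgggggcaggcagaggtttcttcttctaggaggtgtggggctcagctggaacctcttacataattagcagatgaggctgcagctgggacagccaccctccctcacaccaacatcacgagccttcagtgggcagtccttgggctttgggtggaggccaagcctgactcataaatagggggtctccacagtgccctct
Ptger3: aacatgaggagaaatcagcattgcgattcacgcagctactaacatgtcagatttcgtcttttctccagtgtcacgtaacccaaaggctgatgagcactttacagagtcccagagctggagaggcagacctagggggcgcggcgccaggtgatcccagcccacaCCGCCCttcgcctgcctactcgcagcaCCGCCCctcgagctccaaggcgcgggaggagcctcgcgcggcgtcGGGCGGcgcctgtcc
Ptgs2: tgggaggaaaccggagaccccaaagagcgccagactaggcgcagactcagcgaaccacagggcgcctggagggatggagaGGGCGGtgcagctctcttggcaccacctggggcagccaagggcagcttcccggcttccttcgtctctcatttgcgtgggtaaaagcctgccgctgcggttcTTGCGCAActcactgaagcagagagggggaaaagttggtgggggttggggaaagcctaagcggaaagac
The window of Ptgs2 held the C/EBP motif at 69 to 62 bases before the start, and a GC box at 170 to 165. Among all 32851 windows of this length in the table, 0.164% held that C/EBP motif, 6.02% the E-box, 17.8% the CRE core and 32.7% the GC box. Of the 9 members with an entry, Ptgs2 was the only one with the C/EBP motif, Ptges2 the only one with the E-box, none had the CRE core, and 5 had a GC box (Ptgs2, Ptges, Ptges3, Ptger3 and Ptger4). Ptger3 held 3 GC boxes within 87 bases of its start, and Ptgds held none of the 4 motifs. A match is a description of the letters in this window, not of binding. Only these 250 bases were searched, so motifs further upstream or after the table's transcript start were not looked for.

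Ptgs2 encodes cyclooxygenase-2, the form that growth factors, serum and cytokines induce in many cell types. Its log2 signal was 1.09, 3.60 and 3.53 on replicates 1, 2 and 3. Replicate 1 stood low and the other arrays close together, and all 3 lay under the limit. The level was 2.74 ± 1.43, and the difference from the limit was -1.31 log2 units (95% interval from -3.08 to 0.46, limma). The interval reaches a signal 1.37-fold the limit, so a level slightly above background is not excluded by these arrays. The second probe set of Ptgs2 read -1.30, 3.13 and -0.32, also below the limit throughout.

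Of the terminal synthases of prostaglandin E2, Ptges encodes the microsomal enzyme that is usually induced together with cyclooxygenase-2. Ptges gave 1.75, 3.15 and 2.97 on the 3 arrays, a level of 2.62 ± 0.76. The 3 probe sets of Ptges were alike in that none exceeded the limit on any array, with means of 2.62, 2.53 and 2.31. The 95% interval of the difference from the limit, from -2.38 to -0.48 log2 units, lay below 0. Ptges2, which encodes a different membrane-associated enzyme, gave 6.07, 6.48 and 6.95, and even the lowest of these was well over the limit of its array. Its level of 6.50 ± 0.44 was 5.45-fold the limit (95% interval from 3.56 to 8.35, adjusted p = 0.000619, limma). Ptges2 has a single probe set, so this call has no second reading.

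Ptgds encodes the enzyme that turns prostaglandin H2 into prostaglandin D2, and its product is also secreted as a carrier of small lipophilic molecules. Its deposited intensities were 695.9, 771.5 and 812.3, or 9.44, 9.59 and 9.67 on the log2 scale, a narrow spread. The level of 9.57 ± 0.11 was 45.7-fold the limit (95% interval from 35.7 to 58.6, adjusted p = 3.85e-05, limma). The second probe set read 7.84, 7.84 and 7.37 and was also above background (adjusted p = 0.000198 over all probe sets tested, limma). Ptgds was therefore the member with more than 1 probe set in which every probe set passed.

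The brain cells best known for Ptgds are oligodendrocytes, meningeal fibroblasts and the choroid plexus, so their markers are given beside it. The marker counts stand beside a share of 58.3% above background over all genes tested. Of 7 measured oligodendrocyte markers 2 were above background, and the myelin genes Mbp and Mog read 4.55 ± 0.33 and 1.14 ± 1.84, neither above background. Those that passed were Sox10, of the whole lineage, on 1 of its 3 probe sets, and Mal, on 1 of its 2. Mbp passed with the limit at the 90th percentile (adjusted p = 0.023, limma) and with dim genes left out before the fit (0.0281), and the oligodendrocyte count was 3 in both. The oligodendrocyte count ranged from 1 to 3 when 1 array was left out, and was 1 without replicate 1 or without replicate 2. Of 8 meningeal fibroblast markers 1 was above background, the growth factor gene Igf2 at 5.06 ± 0.67, on 1 of its 2 probe sets. Igf2 was named after its value was seen, and it did not pass without replicate 1 or without replicate 2. The matrix genes Dcn and Lum were at 2.77 ± 1.55 and 0.77 ± 0.97. Of 6 choroid plexus markers 2 were above background, the folate receptor gene Folr1 at 9.91 ± 0.06 and the transcription factor gene Otx2 at 7.12 ± 0.52, while Ttr, the transthyretin gene, and Kl were at 2.70 ± 0.94 and 0.78 ± 1.89. The part of such cells in the Ptgds signal was not tested, and in bulk RNA few cells with much of a transcript and many cells with little of it cannot be told apart.

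The labelled cell type was checked in the same way, again beside 58.3% of all genes tested above background. All 10 astrocyte markers were above background, among them the intermediate filament gene Gfap at 12.63 ± 0.12 and the water channel gene Aqp4 at 11.87 ± 0.10. Some passed on only part of their probe sets, such as Aldh1l1 on 1 of its 2. With the median over probe sets the astrocyte count was 8. Microglia, which make prostanoids in the brain, were represented by 1 of 10 markers above background, the receptor gene Csf1r. Csf1r passed on 1 of its 3 probe sets, and Aif1 and Itgam were at 1.79 ± 1.62 and 1.98 ± 1.19. Of 7 endothelial markers 1 passed, the growth factor receptor gene Kdr, with Pecam1 and Cdh5 at 1.56 ± 2.00 and 2.20 ± 1.16. Of 8 neuron markers Syt1 (7.24 ± 0.12), Rbfox3 and Tubb3 passed, while Snap25 stood at 2.02 ± 0.50. Syt1 passed on 1 of its 4 probe sets and was not called when the median over them was taken (adjusted p = 0.409, limma).

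**Figure D2:**
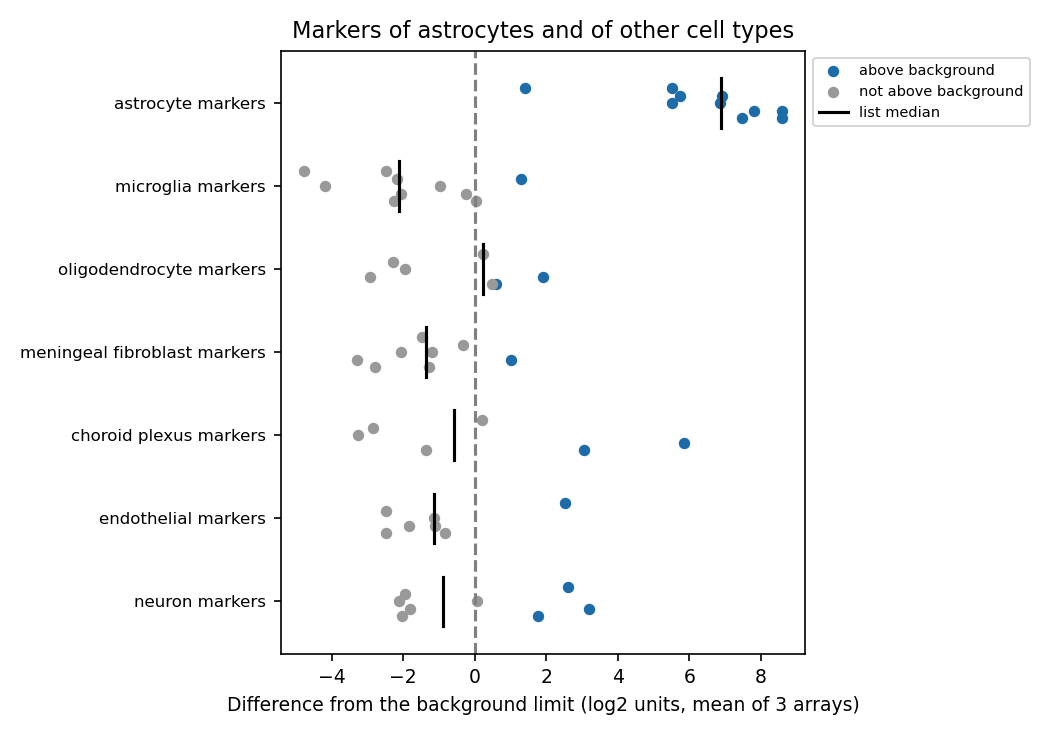
Difference of each marker gene from the background limit (log2 units, mean of 3 arrays), by cell type, with the median of each list as a bar. All 10 astrocyte markers lie above the limit, and most markers of the other cell types lie below it or close to it.

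Among the receptors, Ptger3 was the member above background. EP3 couples mainly to inhibitory G proteins and lowers cyclic AMP, and its mouse gene gives several splice forms that differ at the C-terminal tail. Ptger3 read 8.52, 8.83 and 9.20 on the 3 arrays, lowest on replicate 1 and highest on replicate 3. The level of 8.85 ± 0.34 was 27.8-fold the limit (95% interval from 19.4 to 39.9, adjusted p = 6.36e-05, limma). The other probe set of Ptger3 read -0.82, -0.96 and -1.37, below the limit on all 3 arrays and with a small spread. The call for Ptger3 therefore rests on 1 of its 2 probe sets. This is not particular to Ptger3. Of the 6773 called genes that have more than 1 probe set, 3899 did not pass on all of them. Taking the median over its probe sets, and not the brightest, put Ptger3 at -0.12 log2 units from the limit, and it was not called.

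The other receptor genes gave signals below the limit on every array. Ptger1, for the EP1 receptor that raises calcium through Gq, read 2.03, 2.60 and 3.15, a level of 2.59 ± 0.56. The brighter probe set of Ptger1 carries the suffix of those that may bind more than 1 transcript. Its other probe set read lower still, at 0.63 ± 0.17. Ptger2 and Ptger4 encode EP2 and EP4, which couple to Gs and raise cyclic AMP. Ptger2 read 2.56, 0.27 and 3.15, with replicate 2 far under the others, a level of 1.99 ± 1.52. Ptger4 read 0.21, 3.30 and 2.83 on one probe set and 3.83, -0.22 and 2.45 on the other, so the probe sets did not agree on which array was lowest. The 95% interval of the difference from the limit lay below 0 for Ptger1 (from -2.20 to -0.72 log2 units) and for Ptger2 (from -4.04 to -0.08), and reached 0.12 for Ptger4.

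Over all probe sets of the members, 4 of 15 were above background, beside 52.2% of the 34871 probe sets tested. The 10 probe sets of the 5 genes not called gave 30 readings, and 0 of these exceeded the limit of their array. Adjusted p was 1 for each of these genes (limma), and 3 members had an unadjusted p below 0.05, which is the count at the adjusted threshold too.

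**Figure D3:**
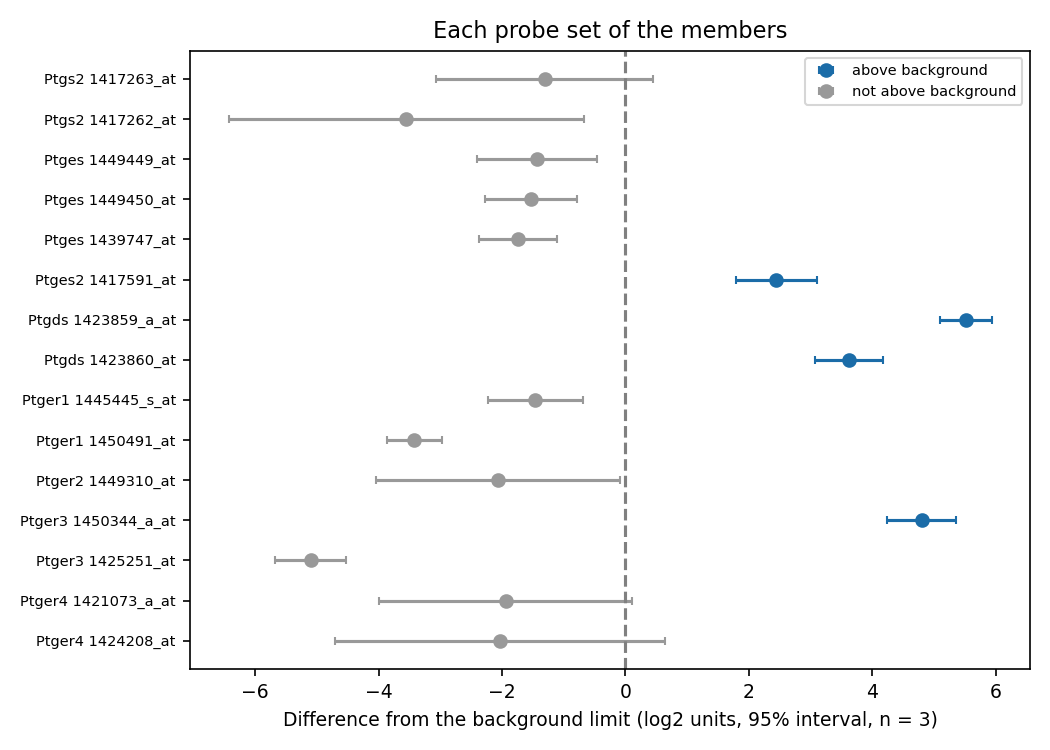
Difference of each of the 15 probe sets of the members from the background limit (points, log2 units), with the 95% interval over 3 arrays (bars). Both probe sets of Ptgds lie above the limit, those of Ptger3 lie on opposite sides of it, and none of the 10 probe sets of Ptgs2, Ptges, Ptger1, Ptger2 and Ptger4 is above background.

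The arrays differed slightly as a whole. The median deviation of genes above background from their own mean was -0.18, 0.02 and 0.16 log2 units on replicates 1, 2 and 3. All 3 called members were lowest on replicate 1 and highest on replicate 3, in the direction of that shift. After it was subtracted, the SD was 0.27 for Ptges2, 0.17 for Ptger3 and 0.06 for Ptgds, beside a median of 0.18 over all genes above background. In Ptgds the remaining deviations were 0.06, 0.01 and -0.07, so replicate 3 was no longer the highest. In Ptges2 they were -0.25, -0.04 and 0.29, and in Ptger3 -0.15, -0.04 and 0.19, so in both replicate 1 was still the lowest and replicate 3 the highest.

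Upstream of the cyclooxygenases, 10 of 17 measured genes of arachidonate release were above background (58.8%, beside 58.3% of all genes). The cytosolic phospholipase A2 genes Pla2g4a and Pla2g4c were at 4.74 ± 0.12 and 5.04 ± 0.15 and passed (adjusted p = 0.00956 and 0.00377, limma), while Pla2g4e was at 3.41 ± 0.32 and did not. Pla2g4a encodes the enzyme that releases arachidonic acid in response to calcium. It did not pass without replicate 1 (adjusted p = 0.0507, limma) or with the limit at the 99th percentile, where Pla2g4c did not pass either (adjusted p = 0.227 and 0.07) and the count was 8. Pla2g4c passed on 1 of its 2 probe sets. With the median over probe sets the count of this list was also 8. Others above background were the phospholipase genes Pla2g6, Pla2g5 and Pla2g12a and the genes of endocannabinoid synthesis and hydrolysis Mgll, Dagla, Daglb, Abhd6 and Faah.

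The branches to other prostanoids were mostly not above background, with 2 of 10 measured genes passing (20%, beside 58.3% of all genes). Akr1b3, also on this list, was not measured, because no probe set was annotated to it alone. Cbr1, a carbonyl reductase that can act on prostaglandins, read 8.69, 8.61 and 8.83, a level of 8.71 ± 0.11 (adjusted p = 4.23e-05, limma). Tbxa2r, the thromboxane receptor gene, read 4.52, 5.07 and 5.35, above the limit on all 3 arrays (adjusted p = 0.0114, limma), but it did not pass without replicate 2 (adjusted p = 0.053), which left 1 gene of this list. Of the other synthases, Ptgis, for prostacyclin, was at 1.15 ± 0.66, Tbxas1, for thromboxane, at 4.00 ± 1.26, and Prxl2b, for prostaglandin F2alpha, at 0.92 ± 0.84. Hpgds, the blood-cell form of prostaglandin D synthase, was at 4.01 ± 0.28, within 0.05 log2 units of the limit, and did not pass. The receptor genes of prostaglandin D2, Ptgdr and Ptgdr2, were at 3.53 ± 1.02 and 1.09 ± 0.60, and those of prostaglandin F2alpha and prostacyclin, Ptgfr and Ptgir, at 2.07 ± 1.42 and 2.48 ± 0.47. So the D2 synthase gene Ptgds passed, and neither D2 receptor gene did.

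Of 6 measured genes of prostaglandin transport and breakdown, 5 were above background (83.3%, beside 58.3% of all genes). Abcc4, a pump that exports prostaglandins, was at 9.20 ± 0.39, and Slco2a1, the prostaglandin uptake transporter, at 4.72 ± 0.27 on 1 of its 4 probe sets. The reductase genes Ptgr1, Ptgr2 and Cbr3 were at 7.12 ± 0.12, 6.76 ± 0.15 and 7.13 ± 0.09. Slco2a1 passed narrowly (adjusted p = 0.0201, limma) and did not pass without replicate 1 (0.0861) or without replicate 2 (0.106), with the limit at the 99th percentile (0.352) or without moderation (0.0514), each of which left 4 genes. Hpgd, the dehydrogenase that starts the breakdown of prostaglandin E2, read 0.31, 2.41 and 0.82, a level of 1.18 ± 1.09, and was not above background on either of its 2 probe sets.

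The lipoxygenase and leukotriene branch, which also uses arachidonic acid, had 3 of 14 measured genes above background (21.4%, beside 58.3% of all genes). Alox5, for 5-lipoxygenase, and its partner Alox5ap read 4.10 ± 0.34 and 3.40 ± 0.14, neither above background. Lta4h, a leukotriene A4 hydrolase, was at 9.51 ± 0.23 and passed, on 1 of its 3 probe sets. The others that passed, named after their values were seen, were Aloxe3 and Mgst3. Aloxe3 passed as a gene (adjusted p = 0.0418, limma), but its single probe set did not in the test over all probe sets. The count was 2 without replicate 1, without replicate 3, with the limit at the 99th percentile, without moderation and with the median over probe sets, where Lta4h was not called (adjusted p = 0.397).

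**Figure D4:**
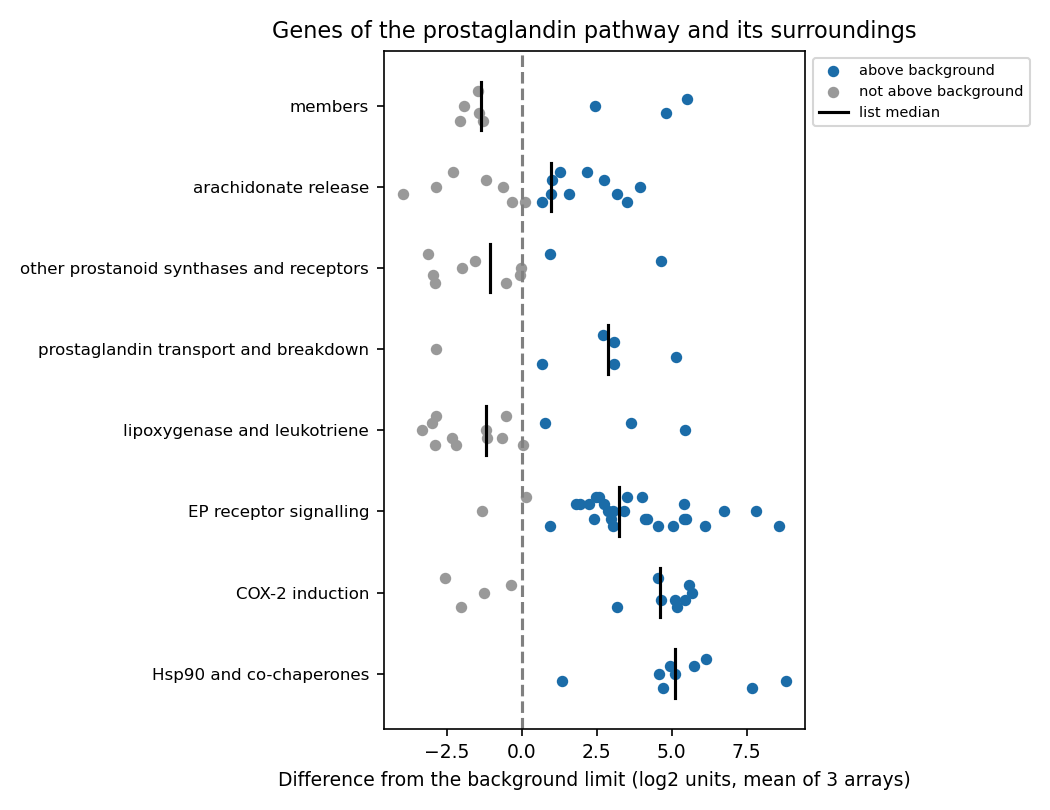
Difference from the background limit (log2 units, mean of 3 arrays) for the measured members and for the genes of 7 related lists, with the median of each list as a bar. Most genes of EP receptor signalling and all measured genes of the Hsp90 and co-chaperones list lie above the limit. By contrast, 5 of 8 members and 8 of 10 other prostanoid genes do not pass. Of all genes tested, 58.3% pass.

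Downstream of the receptors, 26 of 28 genes of EP receptor signalling were above background (92.9%, beside 58.3% of all genes). The count was 21 with the median over probe sets, where 50.6% of all genes were above background. Gnas, for the stimulatory G protein, was at 12.62 ± 0.12, Gnaq, for Gq, at 9.47 ± 0.32, and Gnai2, an inhibitory G protein through which EP3 can act, at 11.86 ± 0.29. Gnas passed on 1 of its 5 probe sets, one that may bind more than 1 transcript, and lay at -0.16 log2 units from the limit without such probe sets. The 2 genes not above background, named after their values were seen, were the adenylyl cyclase genes Adcy4 and Adcy7, while 7 other adenylyl cyclase genes passed. G protein genes for each class of EP receptor thus passed, and among the receptor genes Ptger3 did.

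Of 12 measured genes linked to the control of Ptgs2 levels, 8 were above background (66.7%, beside 58.3% of all genes). The cytokine receptor genes split, with Tnfrsf1a, for the TNF receptor, at 9.16 ± 0.30 and above background, and Il1r1, for the interleukin-1 receptor, at 2.01 ± 1.45 and not. Tlr4 was at 2.79 ± 1.24 and did not pass, and the cytokine genes Il1b and Tnf did not either. The transcription factor genes Rela, Cebpb, Cebpd, Egr1 and Creb1 and the RNA-binding protein genes Zfp36 and Elavl1 passed. Cebpb and Cebpd encode factors of the family that binds the C/EBP motif found before Ptgs2, and they were named after their values were seen. A link between these factors and Ptgs2 was not tested.

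Ptges3, which could not be measured here, is also known as p23, a co-chaperone of Hsp90. All 9 measured genes of Hsp90 and of chaperones that work with it were above background, beside 58.3% of all genes. With the median over probe sets the count was 8. Among them were Hsp90aa1 at 11.73 ± 0.23, the chaperone gene Hspa8 at 12.88 ± 0.29 and Stip1 at 9.17 ± 0.09.

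**Figure D5:**
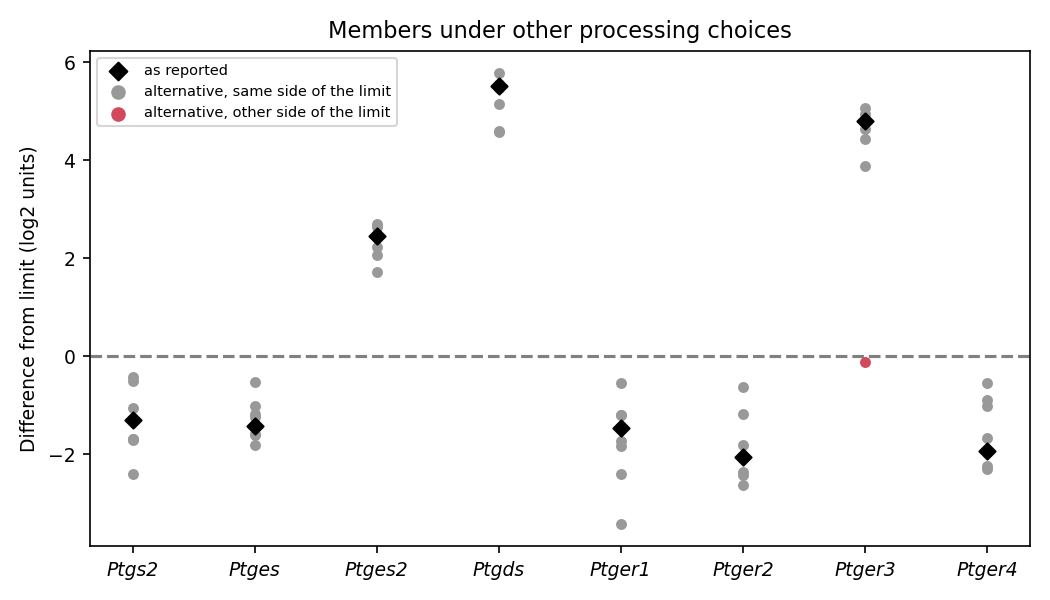
Difference of each member from the background limit (log2 units) as reported (diamonds) and under the other processing choices (circles). Of the 8 members, Ptger3 alone changes sides, at -0.12 with the median of its probe sets.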

How the data were processed

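Per the labels' protocols, total RNA of 3 samples was hybridised to 1-colour arrays. The deposited values are 1 linear intensity per probe set and array, made with GCOS 1.4 per the submitters' processing notes. For scaling, detection calls and genome build, the sources used here state nothing. Of 45101 probe sets, 34958 had 1 gene in the platform annotation, 932 had several and 9211 had none there. Log2 of the deposited intensity was taken with no pseudocount and no normalization between arrays. Each gene took its brightest probe set. The receptor genes that set the limit were left out of the test, which was limma 3.58.1 in R 4.3.3 (one-sample, one-sided, eBayes, Benjamini-Hochberg), and the procedure was tested on simulated data. All members were named with every probe set, as were all measured genes of the other prostanoid and of the transport and breakdown lists, the first 3 measured genes of the other pathway lists and the first 2 of each marker list. Genes named beyond this were chosen after their values were seen. The members and lists were chosen with earlier results of these data known. Alternatives changed the probe set rule, the limit, the normalization, a pseudocount of 16, a filter, the moderation and the replicates used. Promoter letters came from the RefSeq table of GRCm38.p6, which had an entry for 9 of 10 members.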

Additional observations from a re-analysis of the deposited data

How the results depend on the processing

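The members above background were the same 3 genes under 11 of 12 alternatives. Taking each gene's median probe set left 2, Ptges2 and Ptgds, and 50.6% of all genes were above background. In that setting Ptger3 was at -0.125 log2 units from the limit, Pla2g4c at -0.399, Slco2a1 at -0.753, Gnas at -0.817 and Mbp at -1.82, Lta4h (0.299) and Syt1 (0.311) were not called, and the counts were 0 for microglia, 1 for oligodendrocyte and 0 for meningeal fibroblast markers. The median over probe sets also gave counts of 8 for arachidonate release, 4 for transport and breakdown and 21 for EP receptor signalling. It gave 8 for Hsp90 and co-chaperones and 8 for astrocyte markers. Without the probe sets that may bind more than 1 transcript Gnas was at -0.159. With the limit at the 99th percentile the oligodendrocyte count was 1, the meningeal count 0 and Alox5 at -0.329. With the limit at the 90th percentile Tbxas1 was at 0.207 and Hpgds at 0.215, and with log2(intensity + 16) Tbxas1 was at 0.064, all without passing. Without moderation the meningeal count was 0. Leaving out 1 array gave counts from 1 to 3 for oligodendrocyte markers, 0 to 1 for meningeal markers and 1 to 2 for other prostanoid genes. It moved Tbxas1 from -0.566 (without replicate 2) to 0.614 (without replicate 1), Hpgds from -0.192 (without 3) to 0.057 (without 2) and 0.012 (without 1), Ptgdr from -1.06 (without 1) to 0.005 (without 2) and Alox5 from -0.093 (without 1) and -0.036 (without 3) to 0.265 (without 2), none of them called. The median SD of the called members was 0.174 after centring and 0.344 without it. The causes were not tested. With dim genes left out before the fit, 5 members had no value. No paired analysis was possible because there is 1 group. Levels close to the limit cannot be told from background with 3 arrays.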
